A study of Arabidopsis thaliana with 18 samples.

Results

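Glutathione S-transferases of the tau and phi classes were followed across the roots of Arabidopsis thaliana (thale cress) grown with 1 of 5 bisphenols. The 28 tau genes (GSTU1 to GSTU28) and the 13 phi genes (GSTF2 to GSTF14) were taken by their locus identifiers and make up 41 of the 33602 loci in each library. No member was picked by its value, but the classes were chosen with earlier results of these data known. Averaged over the 18 libraries, 38 of the 41 members reached 1 FPKM and were tested, among 19484 loci that did. FPKM stands for fragments per kilobase of transcript, divided by the sequencing depth of a library. The 6 groups of 3 libraries each were wild-type (WT) roots grown for 14 days on agar that held bisphenol A (BPA), bisphenol B (BPB), bisphenol E (BPE), bisphenol F (BPF) or bisphenol S (BPS), and a control that held none of them and had less than 0.01% v/v dimethyl sulfoxide (DMSO). The medium, the light cycle of 16 h light and 8 h dark, and 23 °C were common to all groups. Seeds were sown directly on the dosed plates, so exposure ran from germination to harvest. The protocol names 1, 3 and 10 mg/L, but the labels give each library its compound and not its dose, so whether doses matched between compounds is unknown. The labels do not say whether replicates came from separate plates or plants, and p-values therefore measure the spread between these libraries, which may be technical.

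Glutathione S-transferases join the tripeptide glutathione to electrophilic compounds, and the conjugates are carried into the vacuole by transporters of the ABCC family. The tau and phi classes are the large plant classes of the family, much studied for herbicide tolerance, and many members also act as glutathione peroxidases or bind auxins, flavonoids and other small molecules. Many of the genes arose by tandem duplication and lie side by side. Several respond to auxin, salicylic acid, hydrogen peroxide or xenobiotics through TGA transcription factors, which bind the core TGACG. The bisphenols pair the same phenol rings through different bridges: in BPA the bridging carbon carries a pair of methyls, in BPB an ethyl beside a methyl, in BPE only a methyl and in BPF neither, while BPS has a sulfonyl in its place.

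The largest tandem cluster of members is GSTU1 to GSTU7, 7 genes on the minus strand of chromosome 2 within 14.6 kb (chr2:12617936-12632538). The 250 bases upstream of 5 of them are printed here because the genes of this cluster fell to different degrees: GSTU1 and GSTU7 at its ends, and GSTU4, GSTU5 and GSTU6 within it. All are RefSeq sequence of TAIR10.1, 5′ to 3′ on the gene's own strand and ending at the base before the annotated start, and capitals mark TGACG on either strand. The windows are chr2:12632539-12632788 for GSTU1, chr2:12618900-12619149 for GSTU7, chr2:12627892-12628141 for GSTU4, chr2:12625791-12626040 for GSTU5 and chr2:12621232-12621481 for GSTU6, all on the minus strand. The processing notes name the build TAIR10, and the deposited tables hold no coordinates.
GSTU1: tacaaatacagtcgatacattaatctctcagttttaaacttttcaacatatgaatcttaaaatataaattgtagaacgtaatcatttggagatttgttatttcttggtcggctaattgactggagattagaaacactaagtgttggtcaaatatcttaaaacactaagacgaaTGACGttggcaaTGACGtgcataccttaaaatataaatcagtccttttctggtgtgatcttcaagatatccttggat
GSTU7: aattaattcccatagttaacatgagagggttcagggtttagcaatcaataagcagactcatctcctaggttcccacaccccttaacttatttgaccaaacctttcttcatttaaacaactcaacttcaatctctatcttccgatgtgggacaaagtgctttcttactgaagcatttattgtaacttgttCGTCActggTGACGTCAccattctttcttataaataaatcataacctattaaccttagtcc
GSTU4: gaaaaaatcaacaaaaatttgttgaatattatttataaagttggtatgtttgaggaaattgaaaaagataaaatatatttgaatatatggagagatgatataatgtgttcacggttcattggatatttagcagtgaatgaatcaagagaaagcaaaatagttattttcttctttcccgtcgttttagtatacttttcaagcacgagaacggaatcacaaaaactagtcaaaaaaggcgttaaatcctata
GSTU5: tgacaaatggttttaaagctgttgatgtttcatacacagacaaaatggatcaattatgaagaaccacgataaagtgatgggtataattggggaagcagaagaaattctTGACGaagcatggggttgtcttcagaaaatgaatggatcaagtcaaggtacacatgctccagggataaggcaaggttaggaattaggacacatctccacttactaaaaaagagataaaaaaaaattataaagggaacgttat
GSTU6: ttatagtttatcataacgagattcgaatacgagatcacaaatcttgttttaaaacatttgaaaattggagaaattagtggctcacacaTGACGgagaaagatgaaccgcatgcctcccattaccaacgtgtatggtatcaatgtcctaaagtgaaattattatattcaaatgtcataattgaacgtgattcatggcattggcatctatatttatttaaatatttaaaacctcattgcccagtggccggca

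GSTU1 held TGACG at bases -77 and -65 from its start, both on the printed strand. GSTU7 held it on the other strand at -61 and -49, and on the printed strand at -52, where the palindrome TGACGTCA carries it on both strands. GSTU5 had 1 match at -142 and GSTU6 had 1 at -162, and the letters were not in the window of GSTU4. The window of GSTU3 held 1 at -105. The window of GSTU2 did not hold the letters and, apart from the 19 bases between the genes, lies within GSTU1. The window of GSTU5 overlaps a small annotated coding locus, AT2G29452, and that of GSTU7 overlaps a locus annotated as a non-coding RNA, AT2G00850.

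Over all 41 members, 13 windows held TGACG on either strand, or 31.7%, against 19.6% of 18916 windows of tested genes. TTGAC, the core of the W box bound by WRKY factors, was in 25 of 41 windows (61.0%) against 45.5%, and the letters TTGACG would count for both motifs. The G-box CACGTG was in 3 of 41 (7.32%) against 7.40%. A pair of TGACG on 1 strand starting 12 bases apart was in 2 of 41 windows, those of GSTU1 and GSTU7, against 16 of 18916 (0.0846%). That spacing was searched after the windows had been read, so its rarity elsewhere is not a test of these genes. With 2 TGACG starting within 20 bases on either strand, the counts were 2 of 41 (4.88%) against 244 of 18916 (1.29%). These matches describe letters in a window and are not shown to be bound.

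**Figure D1:**
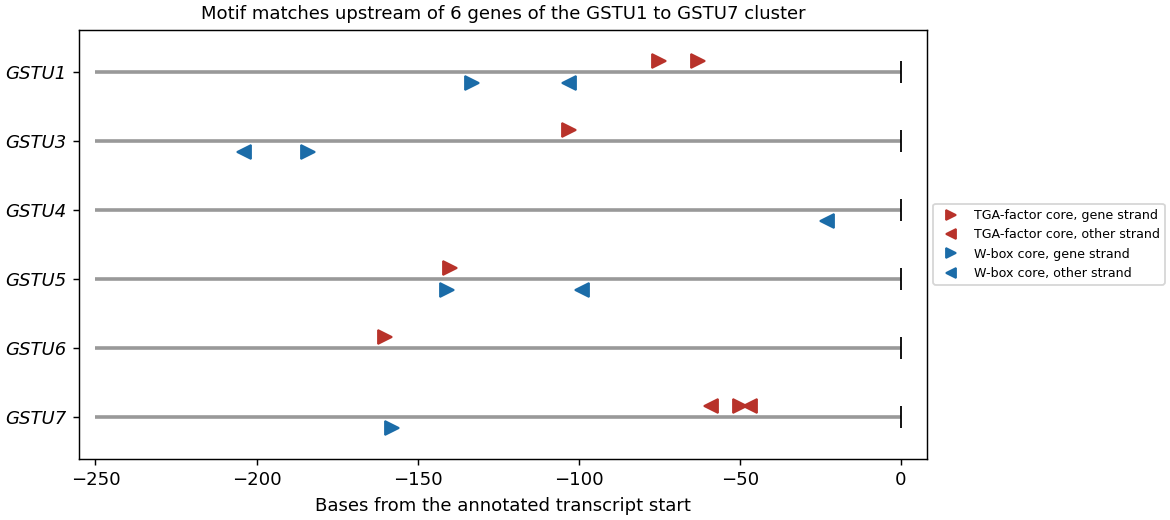
Matches of the TGA-factor core (red, above the line) and the W-box core (blue, below it) in the 250 bases upstream of GSTU1 and GSTU3 to GSTU7, with bases from the annotated start on the x axis. Triangles point right for the gene's own strand and left for the other, and the TGA-factor cores of GSTU1 and GSTU7 lie between -77 and -49.

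Fragment totals recovered from the steps between low values ran from 15.9 to 22.2 M per library (median 18.4 M), and 22971 to 24256 loci were above 0. BPA replicate 3 lay nearer to BPS replicate 1 than to its own group (median absolute log2 difference over tested genes 0.208, against 0.284 to its nearest BPA library). BPB replicate 3 and BPS replicate 3 lay nearest to each other (0.165, against 0.264 and 0.281 within their groups). By smaller margins, BPF replicate 1 lay nearest to control replicate 2 (0.178, against 0.200 within its group). BPF replicate 2 and BPS replicate 1 lay nearest to each other (0.196, against 0.200 and 0.224 within their groups). The BPA, BPB, BPF and BPS groups were therefore not cleanly separated from the others. Counts of called members without BPA, BPB and BPS replicate 3, the libraries with the larger margins, are given beside the main ones. The roots also differed in transcripts of photosynthetic shoot genes, of which 9, 15, 13, 1 and 12 of 15 were called higher in BPA, BPB, BPE, BPF and BPS, against 6.57%, 25.5%, 9.08%, 0.708% and 12.3% of all tested genes. Their summed level was 498 to 824 FPKM in BPA, 936 to 1011 in BPB, 472 to 544 in BPE, 225 to 529.6 in BPF and 329 to 710.0 in BPS, against 107 to 257 in control. None of the 15 was at 0 in all libraries, and 1 was at 0 in some. The 12 root markers were all tested, with a summed level of 362 to 442 FPKM in BPA, 428 to 655 in BPB, 276 to 367 in BPE, 489 to 542 in BPF and 536 to 747 in BPS, against 437 to 511 in control. That sum does not speak for each root marker. PHT1;1 alone had 197 to 328 FPKM in BPB and 254 to 424 in BPS, against 138 to 210 in control. WOX5 went the other way, with 0.942 to 2.18 FPKM in BPB and 1.87 to 2.95 in BPS, against 8.68 to 14.0 in control. The part of the shoot transcripts in the results below was not tested. In whole roots, fewer cells of a type and less RNA per cell cannot be told apart.

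Levels of the members spanned a wide range on the FPKM scale. Means over the 18 libraries were 1526 FPKM for GSTF10 (AT2G30870), also known as ERD13, 1072 for GSTU19, a major conjugating enzyme of the plant, and 932 for GSTU5 (AT2G29450), first isolated as an auxin-responsive transcript. GSTF8, a stress-inducible root gene, averaged 551 FPKM, GSTF9 (AT2G30860) averaged 442 and GSTU26 (AT1G17190) averaged 314. At the other end, GSTF5 (0.0148 FPKM), GSTU15 (0.199) and GSTU21 (0.696) lay under the filter and were not tested. GSTF12 (1.96 FPKM) and GSTF3 (2.22) lay just inside it. GSTF12 is TT19, which anthocyanin needs to accumulate in the vacuole. It was called in no comparison with control, with 0 to 2.19 FPKM in BPA and 2.42 to 6.11 in BPS, against 1.15 to 4.06 in control.

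**Figure D2:**
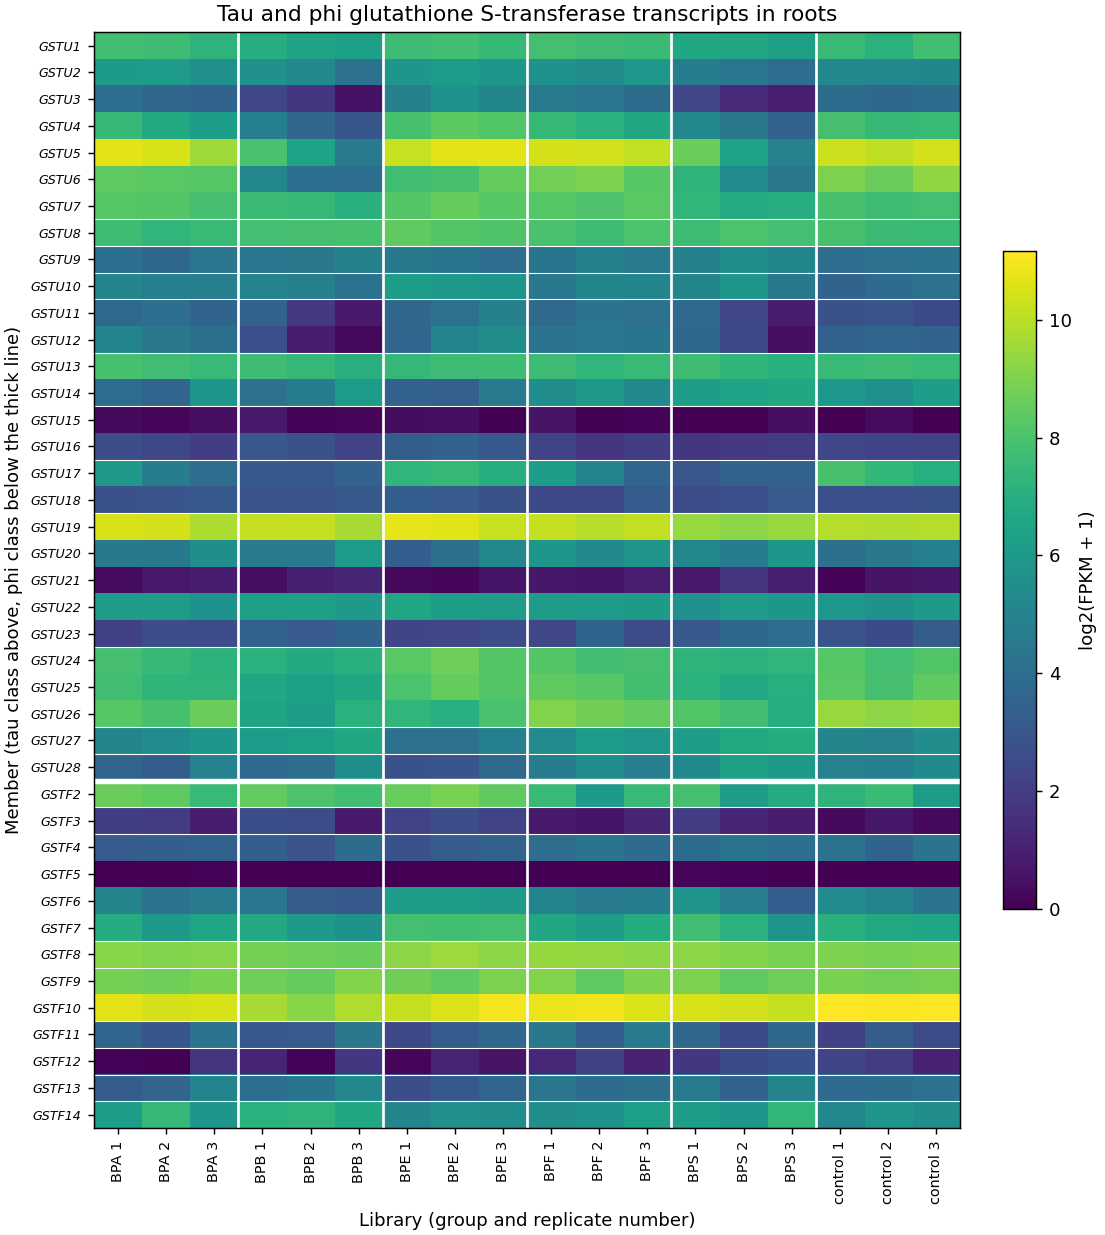
Level of the 41 members (rows, tau above phi) in the 18 libraries (columns, BPA, BPB, BPE, BPF, BPS and control) as log2(FPKM + 1). In the GSTU3 to GSTU6 rows the BPB and BPS columns are darker (lower) than those of the other 4 groups, and GSTF5, GSTU15 and GSTU21 are among the lowest rows, with highest values of 0.125, 0.726 and 2.20 FPKM in any library.

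Summed over a class, the tau transcripts were lower in BPB and BPS than in any other group. The 28 tau genes together reached 2899, 2529 and 2289 FPKM in BPB libraries and 2912, 2362 and 2244 FPKM in BPS libraries, against 5656, 4815 and 5751 FPKM in control libraries. The BPB and BPS libraries all lay below the 3 control libraries. Sums were 5733, 5027 and 3869 FPKM in BPA, 5593, 6284 and 5829.6 FPKM in BPE and 5772, 5281 and 4857 FPKM in BPF, each range overlapping that of the control. The 13 phi genes summed to 3085 ± 261 FPKM in BPA, 2188 ± 256 in BPB, 3414 ± 462 in BPE, 3215 ± 186 in BPF and 2721 ± 375 in BPS, against 3578 ± 98.4 in control (SD, n = 3 each). The phi sums of all BPA, BPB, BPF and BPS libraries lay below every control library, and those of BPE overlapped the control. The 41 members took 0.802 ± 0.0838% of a library's FPKM in BPB and 0.861 ± 0.124% in BPS, against 1.49 ± 0.0804% in control (SD, n = 3 each). A few abundant genes carry these sums, so no test was made on them.

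**Figure D3:**
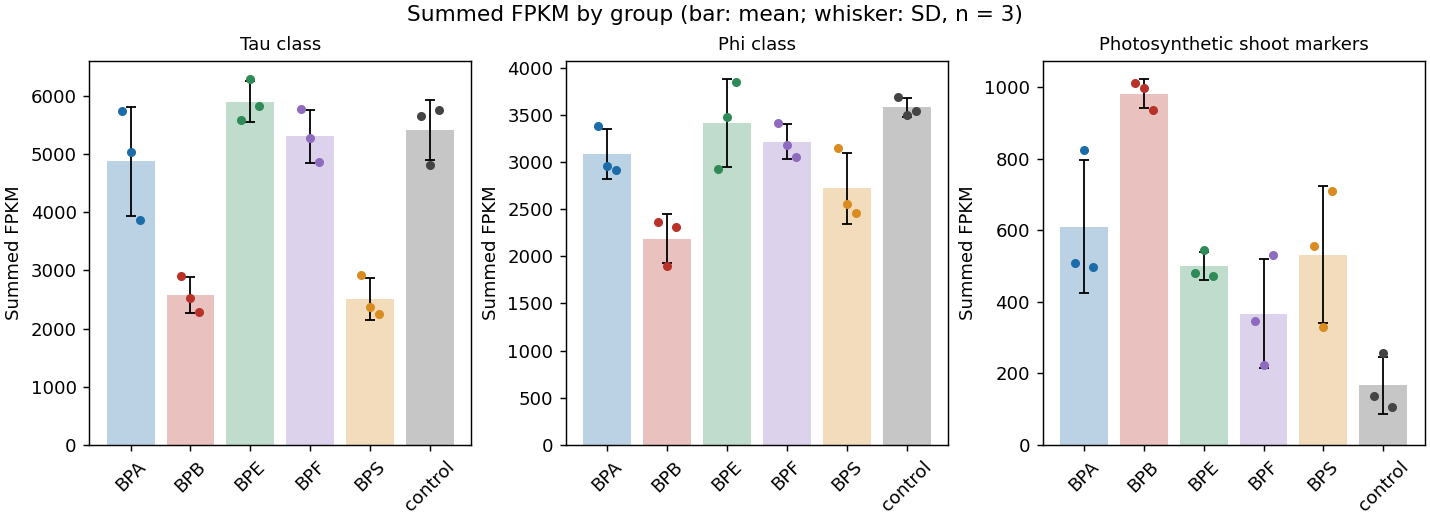
Summed FPKM of the tau class, the phi class and the 15 photosynthetic shoot markers in the 6 groups; points are libraries, bars the mean and whiskers the SD (n = 3). The BPB and BPS bars of the tau class stand at 2572 and 2506 FPKM, against 5407 FPKM in control.

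By gene, tested with limma on log2(FPKM + 1) and called at a Benjamini-Hochberg adjusted p under 0.05 over all 19484 loci, 23 of the 38 tested members were called in at least 1 comparison with control and 15 in none. The 44 calls were 14 rises and 30 falls, and 27 of them held without any 1 library of the 6 compared. In BPA, 1 rose and 3 fell of 38, or 10.5%, where 10.4% of all tested genes were called (6.57% higher and 3.83% lower). In BPB, 4 rose and 11 fell, or 39.5% against a background of 36.6%. That background was 25.5% higher and 11.1% lower, so 11 falls of 38 stand beside the lower share and 4 rises beside the higher one. In BPE, 6 rose and 4 fell, or 26.3% against 14.3% (9.08% higher and 5.20% lower). In BPF, 1 fell and 0 rose by limma (7 were higher and 1 lower at an unadjusted p under 0.05), or 2.63% against 1.39%, which was 0.708% higher and 0.677% lower. In BPS, 3 rose and 11 fell, or 36.8% against 21.0%, which was 12.3% higher and 8.71% lower. Without BPA, BPB and BPS replicate 3, a choice made after seeing the data, the members called were 10 in BPA, 20 in BPB, 19 in BPE, 3 in BPF and 17 in BPS. With every library shifted to the same median, 0 rose and 3 fell in BPA, 3 rose and 15 fell in BPB, and 5 rose and 5 fell in BPE. The shares of all tested genes called in these other fits are not given here, so their counts are not set against a background.

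The median log2 change of the 38 members was 0.01 in BPA, -0.33 in BPB, 0.30 in BPE, 0.05 in BPF and -0.10 in BPS. Over all tested genes the medians were 0.04, 0.16, 0.04, 0.01 and 0.09 in the same order. All comparisons with control share the 3 control libraries. Of the 26 tested tau genes, 2 rose and 10 fell in BPB, and 3 rose and 10 fell in BPS. Of the 12 tested phi genes, 2 rose and 1 fell in BPB, 2 rose and 1 fell in BPE, and 1 fell in BPS. Of all tested genes, 25.5% rose and 11.1% fell in BPB, 9.08% and 5.20% in BPE, and 12.3% and 8.71% in BPS. With 12 phi genes, no contrast between the classes is read from these counts. An F test across the 6 groups called 31 of the 38 members, where 53.3% of all tested genes were called.

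**Figure D4:**
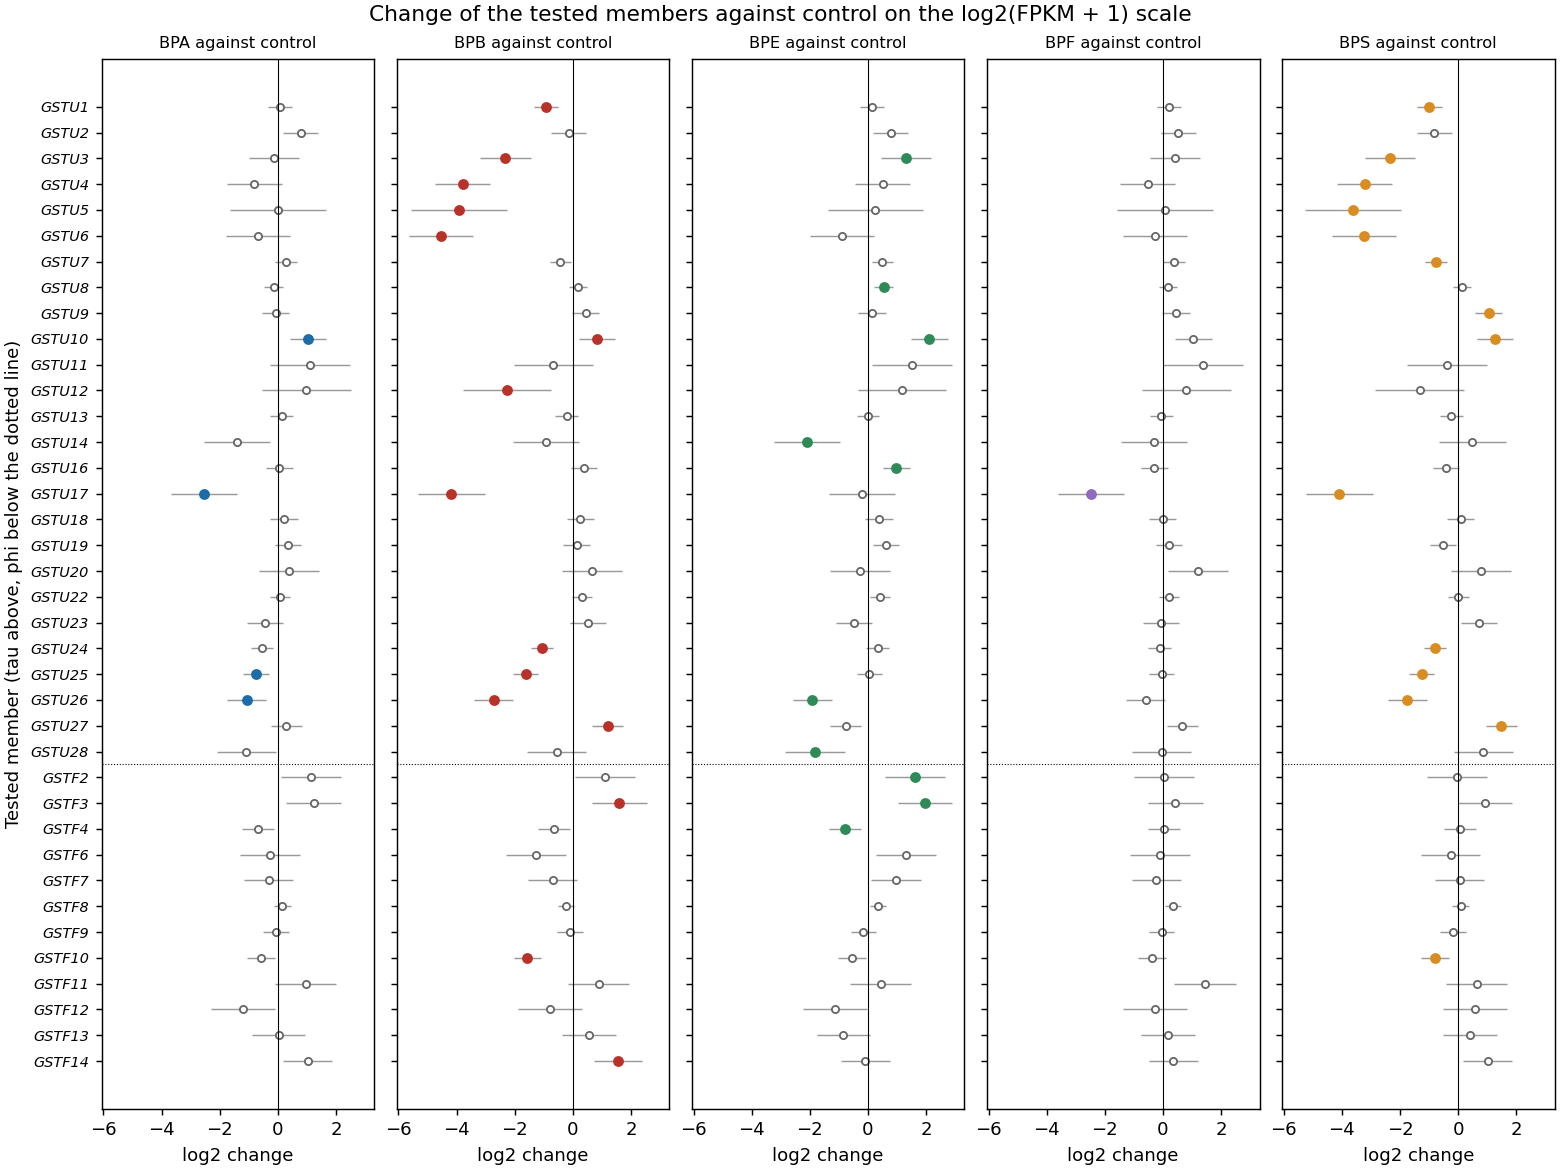
Change of each tested member against control on the log2(FPKM + 1) scale, with 1 panel per compound; points are estimates, lines 95% intervals, and filled points have an adjusted p under 0.05. The longest moves to the left are GSTU6 (-4.54) and GSTU17 (-4.18) in BPB and GSTU17 (-4.09) in BPS.

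In the GSTU1 to GSTU7 cluster, 5 of 7 genes fell in BPB and 6 of 7 fell in BPS, while 1 rose in BPE. Of all tested genes, 11.1% fell in BPB, 8.71% fell in BPS and 9.08% rose in BPE. GSTU5, the most abundant gene of the cluster, had 244, 87.6 and 23.9 FPKM in BPB libraries and 388, 85.00 and 29.9 FPKM in BPS libraries, against 1256, 1088 and 1354 FPKM in control libraries. Every BPB and BPS library lay below every control library, and the first replicate of each was the highest of its group. GSTU5 fell by 3.91 ± 0.77 (SE) on the log2 scale in BPB (adjusted p = 0.0013) and fell by 3.60 ± 0.77 in BPS (adjusted p = 0.00476). In BPA, BPE and BPF it ran from 769.9 to 1666 FPKM and was not called. BPA replicate 3, the BPA library that stood apart from its group, had the lowest of these values. BPA replicates 1 and 2 had 1663 and 1436 FPKM.

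GSTU6 (AT2G29440), the neighbour of GSTU5, had 34.7, 15.97 and 15.3 FPKM in BPB libraries and 154, 41.9 and 21.1 FPKM in BPS libraries, against 492, 389.5 and 641 FPKM in control libraries. It fell by 4.54 ± 0.52 (SE) in BPB (adjusted p = 3.15e-05) and fell by 3.24 ± 0.52 in BPS (adjusted p = 0.00081). The 3 BPA libraries (332, 313 and 293 FPKM) and the 3 BPE libraries (210.4, 243 and 369 FPKM) also lay below all control libraries, but the log2 changes of -0.67 and -0.90 were not called. GSTU4 (AT2G29460) had 27.5, 11.8 and 6.95 FPKM in BPB and 35.7, 21.4 and 10.9 FPKM in BPS, against 229.5, 179.6 and 184 FPKM in control. Both groups lay below the control without overlap, and GSTU4 fell by 3.79 ± 0.45 (SE) in BPB (adjusted p = 3.83e-05) and fell by 3.21 ± 0.45 in BPS (adjusted p = 0.000361).

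GSTU3 (AT2G29470) was the only member called in opposite directions among the comparisons with control. It had 28.3, 50.2 and 33.5 FPKM in BPE, 4.18, 2.54 and 0.451 FPKM in BPB and 4.23, 1.59 and 0.903 FPKM in BPS, against 14.6, 12.8 and 14.5 FPKM in control. All BPE libraries lay above the control libraries, and all BPB and BPS libraries below them. The lowest value, in BPB replicate 3, stood for about 9 fragments. GSTU3 rose by 1.32 ± 0.41 (SE) in BPE (adjusted p = 0.0442), fell by 2.32 ± 0.41 in BPB (adjusted p = 0.000573) and fell by 2.34 ± 0.41 in BPS (adjusted p = 0.0014). The rise in BPE was not called when BPE replicate 1, 2 or 3 or control replicate 1, 2 or 3 was left out (adjusted p = 0.0697 to 0.159), nor with quantile normalization (adjusted p = 0.0548) or a pseudocount of 0.1 (adjusted p = 0.129).

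The genes at the ends of the cluster moved less. GSTU1 (AT2G29490) had 122, 84.7 and 80.4 FPKM in BPB and 99.5, 93.9 and 79.3 FPKM in BPS, against 184, 142 and 222 FPKM in control, and fell by 0.93 in BPB (adjusted p = 0.00194) and fell by 0.98 in BPS (adjusted p = 0.00305) on the log2 scale. GSTU7 (AT2G29420) had 197, 174 and 134 FPKM in BPB and 165, 115 and 122 FPKM in BPS, against 239.5, 206 and 226 FPKM in control. It fell by 0.75 in BPS (adjusted p = 0.00742), and its change of -0.43 in BPB was not called (adjusted p = 0.0672) although the groups did not overlap. GSTU2 (AT2G29480), 19 bases from GSTU1, was called in neither, with 48.4, 37.9 and 17.2 FPKM in BPB and 24.8, 19.9 and 14.9 FPKM in BPS, against 35.5, 35.4 and 34.3 FPKM in control. All BPS libraries lay below the control and the BPB libraries on both sides of it, with changes of -0.14 in BPB and -0.82 in BPS. GSTU3 to GSTU6 together summed to 46.7 to 311 FPKM in BPB and 62.7 to 582 in BPS, against 1670.0 to 2194 in control. GSTU1, GSTU2 and GSTU7 summed to 231 to 367 FPKM in BPB and 216 to 289 in BPS, against 384 to 482 in control. That split of the cluster was drawn after the values were seen. GSTU1 and GSTU7 are the genes whose printed windows hold the TGACG pairs, while the window of GSTU2 held no TGACG. The windows of GSTU3, GSTU5 and GSTU6 held 1 TGACG each, and that of GSTU4 held none. Whether the windows bear on the size of the falls was not tested. The coding sequences of GSTU1 and GSTU2 are 85.55% identical and those of GSTU5 and GSTU6 83.1%, with no shared run longer than 35 bases in either pair.

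**Figure D5:**
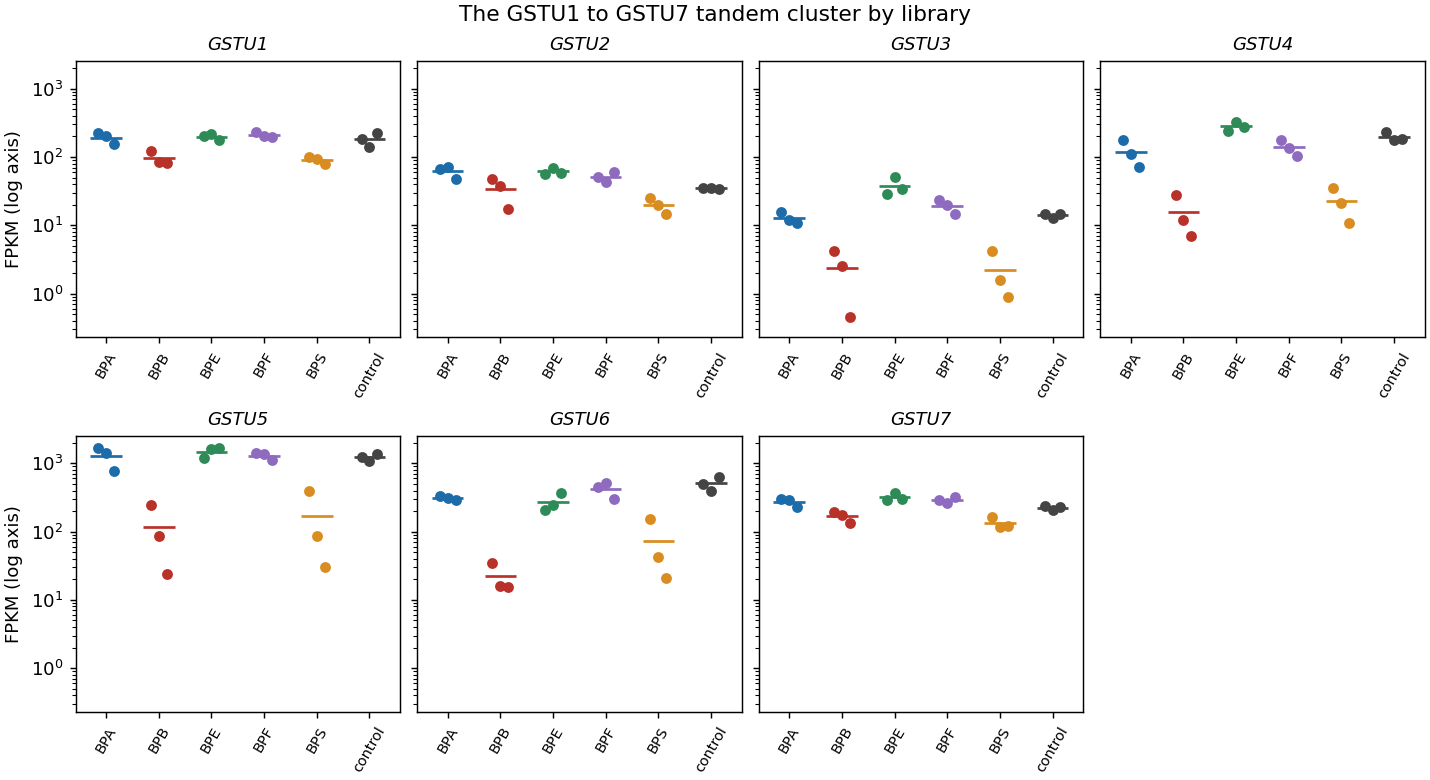
FPKM of the 7 genes of the cluster in each library, on a log axis, by group (BPA, BPB, BPE, BPF, BPS, control). GSTU3 to GSTU6 drop in BPB and BPS, down to 0.451 FPKM for GSTU3, while GSTU1 and GSTU7 stay between 79.3 and 363 FPKM in every library.

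GSTU24 to GSTU26, 3 genes on chromosome 1 within 7.08 kb (chr1:5869543-5876620), fell in both BPB and BPS. GSTU24 and GSTU25 are known for conjugating the explosive TNT. GSTU26 had 307, 242 and 392 FPKM in BPA, 91.1, 72.6 and 140.4 FPKM in BPB, 161, 129 and 247 FPKM in BPE and 276, 211 and 123 FPKM in BPS, against 688, 593 and 672 FPKM in control. It lay below the control in every library of these 4 groups and in the BPF libraries as well (524, 429 and 354 FPKM). The log2 change was -1.08 ± 0.31 in BPA (SE, adjusted p = 0.0416), -2.72 ± 0.31 in BPB (3.43e-05), -1.91 ± 0.31 in BPE (0.00315) and -1.75 ± 0.31 in BPS (0.00168), and -0.59 in BPF (not called, 0.341). The call in BPA was lost when BPA replicate 1 or 2 or control replicate 1, 2 or 3 was left out (adjusted p = 0.0648 to 0.181) and with quantile normalization (adjusted p = 0.0614).

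GSTU25 (AT1G17180) had 212, 157 and 154 FPKM in BPA, 98.5, 81.1 and 104 FPKM in BPB and 137, 105 and 126 FPKM in BPS, against 316, 232 and 341 FPKM in control. All 3 groups lay below the control, and the gene changed by -0.76 in BPA (adjusted p = 0.0318), -1.63 in BPB (6.33e-05) and -1.25 in BPS (0.000984) on the log2 scale. The BPA call was lost when BPA replicate 2 or 3 or control replicate 1 or 3 was left out (adjusted p = 0.0719 to 0.136) and in a fit of the 6 libraries alone (adjusted p = 0.0518). GSTU25 ran from 219.8 to 370.4 FPKM in BPE and BPF. GSTU24 (AT1G17170) averaged 128 ± 13.02 FPKM in BPB and 153 ± 8.83 FPKM in BPS, against 268 ± 35.9 FPKM in control (SD, n = 3 each), and fell by 1.06 in BPB (adjusted p = 0.000523) and fell by 0.80 in BPS (adjusted p = 0.00713) on the log2 scale. In BPE GSTU24 averaged 339 ± 62.97 FPKM, and its log2 change of 0.33 was not called, while GSTU26 of the same cluster fell.

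GSTU17 (AT1G10370), known as ERD9 (early responsive to dehydration), fell in 4 of the 5 comparisons. It had 64.7, 24.7 and 14.8 FPKM in BPA, 7.90, 7.51 and 10.6 FPKM in BPB, 75.2, 30.6 and 11.5 FPKM in BPF and 7.22, 10.6 and 10.2 FPKM in BPS, against 238, 166 and 129 FPKM in control. None of these 12 libraries reached the lowest control, and the BPB and BPS values lay close together. The log2 change was -2.54 ± 0.54 in BPA (SE, adjusted p = 0.0118), -4.18 ± 0.54 in BPB (6.90e-05), -2.48 ± 0.54 in BPF (0.0374) and -4.09 ± 0.54 in BPS (0.000258). BPE libraries had 160.0, 170.3 and 123 FPKM, which overlapped the control, with a change of -0.20 that was not called. The call in BPA was lost when BPA replicate 2 or control replicate 1 was left out (adjusted p = 0.0641 to 0.0642), and the call in BPF was lost when BPF replicate 2 or 3 or control replicate 1, 2 or 3 was left out (adjusted p = 0.0633 to 0.219) and without the filter on low values (adjusted p = 0.0606). Its neighbour GSTU18, whose annotated start overlaps its end by 71 bases and whose coding sequence is 81.6% identical, had 4.39 to 9.23 FPKM over the 15 bisphenol libraries and 5.62 to 5.73 FPKM in control, and was called in no comparison with control.

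GSTU10 (AT1G74590) was the member with the most rises. It had 33.2, 27.1 and 27.04 FPKM in BPA, 30.9, 28.3 and 17.4 FPKM in BPB, 72.8, 61.3 and 54.1 FPKM in BPE and 32.4, 57.4 and 22.1 FPKM in BPS, against 10.8, 13.9 and 16.8 FPKM in control. All of these libraries were above the control, as were the BPF libraries (22.1, 33.2 and 33.9 FPKM). The log2 change was 1.04 ± 0.29 in BPA (SE, adjusted p = 0.0369), 0.82 ± 0.29 in BPB (0.0389), 2.11 ± 0.29 in BPE (0.00112) and 1.28 ± 0.29 in BPS (0.00677), and 1.05 in BPF (not called, 0.0871). The call in BPA was lost when BPA replicate 1, 2 or 3 or control replicate 1, 2 or 3 was left out (adjusted p = 0.0529 to 0.152), and the call in BPB when BPB replicate 1 or 2 or control replicate 1 or 2 was left out (adjusted p = 0.0732 to 0.145). With quantile normalization both calls were lost (adjusted p = 0.0576 in BPA and 0.0913 in BPB). The BPA call was also lost with every library shifted to the same median.

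GSTU27 (AT3G43800) averaged 82.3 ± 15.3 FPKM in BPB and 101 ± 22.2 FPKM in BPS, against 35.2 ± 6.83 FPKM in control (SD, n = 3 each), and rose by 1.20 (adjusted p = 0.00209) and 1.49 (adjusted p = 0.00121) on the log2 scale. In BPE it averaged 20.5 ± 5.67 FPKM, with a log2 change of -0.76 that was not called. GSTU9 (AT5G62480) averaged 36.4 ± 9.48 FPKM in BPS, against 16.8 ± 1.69 FPKM in control, and rose by 1.05 (adjusted p = 0.00471). GSTU16 (AT1G59700) had 8.77, 10.8 and 7.06 FPKM in BPE, against 4.27, 3.77 and 3.80 FPKM in control. No BPE library reached down to the control, and GSTU16 rose by 0.98 ± 0.21 (SE) (adjusted p = 0.0114), a call not kept when BPE replicate 2 or control replicate 3 was left out (adjusted p = 0.0573 to 0.0592). Its close copy GSTU15, 83.1% identical in coding sequence, stayed at 0 to 0.726 FPKM in all 18 libraries.

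BPE was also the only compound with calls for GSTU8, GSTU14 and GSTU28 against control, which does not show that BPE differs from the others in them. GSTU14 (AT1G27140) averaged 14.5 ± 7.70 FPKM in BPE, against 61.6 ± 13.97 FPKM in control (SD, n = 3 each), and fell by 2.10 on the log2 scale (adjusted p = 0.0215). GSTU28 (AT1G53680) averaged 8.80 ± 4.11 FPKM in BPE, against 32.3 ± 6.71 FPKM in control, and fell by 1.82 (adjusted p = 0.0243). GSTU8 (AT3G09270) averaged 303 ± 40.1 FPKM in BPE, against 208 ± 29.9 FPKM in control, and rose by 0.54 (adjusted p = 0.0289). These calls were fragile to single libraries. That of GSTU14 was lost when BPE replicate 1 or 2 or control replicate 1 or 3 was left out (adjusted p = 0.0635 to 0.101). That of GSTU28 was lost when BPE replicate 1 or 2 or control replicate 1 or 3 was left out (adjusted p = 0.0654 to 0.111). That of GSTU8 was lost when BPE replicate 1 or 2 or control replicate 2 or 3 was left out (adjusted p = 0.0667 to 0.136). Between the compounds, GSTU14 was higher in BPF than in BPE by 1.79 (adjusted p = 0.037) and higher in BPS than in BPE by 2.59 (adjusted p = 0.00195) on the log2 scale. The BPE libraries overlapped those of BPA and BPB in GSTU14 (11.7 to 57.7 FPKM in BPA and 17.5 to 70.6 FPKM in BPB). They also overlapped those of BPA and BPB in GSTU28 (8.79 to 29.5 FPKM in BPA and 12.9 to 46.5 FPKM in BPB).

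Among the remaining tau genes, 1 was called against control. GSTU12 (AT1G69920) had 5.60, 0.817 and 0.178 FPKM in BPB, against 9.98, 11.4 and 10.7 FPKM in control, and fell by 2.27 ± 0.71 (SE) (adjusted p = 0.0214). The BPB libraries lay below the control, the lowest of them at about 3 fragments, and the call was lost when BPB replicate 2 or 3 or control replicate 1, 2 or 3 was left out (adjusted p = 0.0508 to 0.0811). All BPA and BPF libraries of GSTU12 lay above the control, without a call (means of 22.9 and 19.4 FPKM, against 10.7 FPKM). Those of BPE and BPS overlapped the control. The neighbour of GSTU12, GSTU11 (AT1G69930), had 4.66 to 6.58 FPKM in control and was called in no comparison with it. All GSTU11 libraries of BPA (10.7 to 16.1 FPKM), BPE (11.8 to 28.5 FPKM) and BPF (13.3 to 18.7 FPKM) lay above the control. Those of BPB (0.737 to 10.2 FPKM) and BPS (0.79 to 12.99 FPKM) overlapped it. GSTU19 (AT1G78380) had 1429, 1373 and 873 FPKM in BPA, 1159, 1143 and 832 in BPB, 1699.6, 1552 and 1180.0 in BPE, 1147, 986 and 1119 in BPF and 689, 591 and 693 in BPS, against 977, 899 and 961 in control. The BPS libraries were the lowest, all under the control, and the BPE libraries all above it, but the log2 changes of -0.53 and 0.63 were not called (adjusted p = 0.0905 and 0.0589). GSTU20, GSTU22 and GSTU23 (AT1G78320), which follow GSTU19 in a cluster on chromosome 1, were likewise called in no comparison with control. GSTU20 (AT1G78370), an interactor of the jasmonate enzyme FIN219, had 8.97 to 70.6 FPKM in the bisphenol libraries and 16.6 to 27.2 FPKM in control. GSTU22 (AT1G78340) had 49.7 to 97.3 FPKM in the bisphenol libraries and 52.6 to 63.96 FPKM in control. GSTU23 had 3.44 to 14.96 FPKM in the bisphenol libraries and 4.68 to 8.93 FPKM in control. GSTU13 (AT1G27130), also called in none, takes part in indole glucosinolate metabolism and averaged 213 ± 23.9 FPKM in BPA, 169 ± 39.5 in BPB, 194 ± 19.99 in BPE, 185 ± 19.3 in BPF and 166 ± 36.7 in BPS, against 193 ± 12.1 in control.

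Among the phi genes, GSTF10 had the highest level and made most of the difference in the class sum. It had 829.9, 578 and 912 FPKM in BPB and 1425, 1335 and 1163 FPKM in BPS, against 2291, 2158 and 2283 FPKM in control. All 15 bisphenol libraries lay below the control, those of BPA, BPE and BPF between 1177 and 2023 FPKM. The gene fell by 1.56 ± 0.22 (SE) in BPB (adjusted p = 0.00014) and fell by 0.78 ± 0.22 in BPS (adjusted p = 0.0217), and the BPS call was lost when BPS replicate 2 or 3 or control replicate 1, 2 or 3 was left out (adjusted p = 0.0501 to 0.0747) and with quantile normalization (adjusted p = 0.182). Its neighbour GSTF9, 897 bases away and 77.6% identical in coding sequence, had 411, 371 and 541 FPKM in BPB and 499, 341 and 413 FPKM in BPS, against 479.6, 442 and 473 FPKM in control. The groups overlapped, GSTF9 ran from 339 to 523 FPKM in BPA, BPE and BPF, and the F test across the 6 groups gave an adjusted p of 0.957.

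GSTF2 and GSTF3 (AT2G02930), which are 94.5% identical in coding sequence and may not be fully separated by the counting, rose together in BPE. GSTF3 had 5.42, 5.09 and 0.764 FPKM in BPB and 3.78, 5.21 and 3.83 FPKM in BPE, against 0.227, 0.636 and 0.224 FPKM in control. Both groups lay above the control, where the values stood for 4 to 12 fragments. GSTF3 rose by 1.96 ± 0.44 (SE) in BPE (adjusted p = 0.0127) and rose by 1.60 ± 0.44 in BPB (adjusted p = 0.0103). Its BPA libraries (0.875 to 3.21 FPKM) and BPS libraries (0.823 to 3.03 FPKM) also all lay above the control, without a call. Those of BPF overlapped the control. The BPE call was lost when BPE replicate 2 or control replicate 3 was left out (adjusted p = 0.0572 to 0.0673) and the BPB call when BPB replicate 2 was left out (adjusted p = 0.0569). GSTF2 (AT4G02520), which binds camalexin and flavonoids, averaged 399.7 ± 70.9 FPKM in BPE, against 139 ± 61.9 FPKM in control (SD, n = 3 each), and rose by 1.61 (adjusted p = 0.0398). That call was lost when BPE replicate 1, 2 or 3 or control replicate 1 or 3 was left out (adjusted p = 0.059 to 0.194) and without the filter on low values (adjusted p = 0.0592). GSTF2 was not called in BPA or BPB, where it averaged 303 and 281 FPKM, although all BPB libraries lay above the control. In BPF and BPS it averaged 146 and 140 FPKM. GSTF2 lies over TOC159 on the other strand, whose log2 change in BPE was 0.30 (not called). The libraries were strand-specific, and whether the counting used strand is not given in the sources used here.

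GSTF14 (AT1G49860) averaged 132 ± 26.6 FPKM in BPB, against 44.5 ± 10.8 FPKM in control (SD, n = 3 each), and rose by 1.55 on the log2 scale (adjusted p = 0.00658). Its BPA libraries (57.7 to 169 FPKM) and BPS libraries (59.4 to 164 FPKM) also lay above the control, without a call. Those of BPE and BPF overlapped the control. GSTF4 (AT1G02950) averaged 8.54 ± 2.41 FPKM in BPE, against 15.6 ± 4.09 FPKM in control, and fell by 0.80 (adjusted p = 0.0499), a call not kept when BPE replicate 1 or 2 or control replicate 1 or 3 was left out (adjusted p = 0.113 to 0.208) and with quantile normalization (adjusted p = 0.0519). GSTF6 (AT1G02930), which serves camalexin synthesis, and GSTF7 are 94.3% identical with a shared run of 116 bases and are reported as 1 uncertain pair. GSTF6 had 75.5, 75.7 and 65.2 FPKM in BPE, against 40.6, 30.9 and 18.6 FPKM in control. GSTF7 (AT1G02920) had 224, 217 and 229 FPKM in BPE, against 135, 111 and 97.6 FPKM in control. All BPE libraries of both lay above the control, but the log2 changes of 1.3 and 0.97 were not called (adjusted p = 0.0815 and 0.112). GSTF8 (AT2G47730) had 587, 532 and 564 FPKM in BPA, 454, 416 and 404 in BPB, 599, 733 and 600.4 in BPE, 666, 648 and 598 in BPF and 596, 540.2 and 474 in BPS, against 517, 474 and 515 in control. It was the lowest in BPB and called in no comparison with control, nor were GSTF11 and GSTF13. GSTF11 (AT3G03190), which serves glucosinolate synthesis, had 4.32 to 22.5 FPKM in the bisphenol libraries and 3.41 to 8.91 FPKM in control. GSTF13 (AT3G62760) had 5.38 to 35.7 FPKM in the bisphenol libraries and 13.2 to 16.7 FPKM in control. In the annotation GSTF11 overlaps NAC045 and GSTF12 overlaps PSY on the opposite strand, and reads of the overlapping stretch cannot be told apart without strand.

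The compounds were also compared with each other in 10 pairs, with p-values adjusted over all tested genes within each pair and with doses not known to match. The 10 pairs gave 117 calls, and 90 to 130 with 1 library left out. The most members were called between BPS and BPE: 27 of 38 members differed between BPS and BPE (background 39.4%). Next, 22 of 38 members differed between BPE and BPB (background 31.3%), and 16 of 38 members differed between BPF and BPB (background 28.0%). Then 15 of 38 members differed between BPS and BPA (background 18.2%), 11 of 38 members differed between BPB and BPA (background 9.94%) and 10 of 38 members differed between BPF and BPE (background 16.0%). Fewer were called in the other pairs: 8 of 38 members differed between BPS and BPF (background 3.04%), and 6 of 38 members differed between BPE and BPA (background 2.63%). Between BPF and BPA limma called 0 of 38 members (6 higher and 1 lower in BPF at an unadjusted p under 0.05; background 0.0667%).

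BPS and BPB, which have a sulfonyl and a substituted carbon as bridge, differed in 2 of 38 members, against a background of 9.24%. Replicate 3 of BPB and replicate 3 of BPS were each other's nearest library (0.165, against 0.264 and 0.281 within their groups). The count for this pair without those libraries is not given here. GSTU16 was lower in BPS (log2 difference -0.80), with 2.54, 2.61 and 3.01 FPKM in BPS and 7.20, 5.82 and 3.84 FPKM in BPB (adjusted p = 0.0371). GSTF10 was higher in BPS by 0.78 (adjusted p = 0.0447). Neither group overlapped the other for these genes, but that was also so for members that were not called. GSTU19 was 1 of them, with 591 to 693 FPKM in BPS and 832 to 1159 FPKM in BPB. For GSTU5 the difference of BPS over BPB was 0.31 with a 95% interval of -1.34 to 1.95, and for GSTU4 it was 0.58 (-0.37 to 1.53). For GSTU6 it was 1.297 (0.20 to 2.40, adjusted p = 0.112), and for GSTU17 0.09 (-1.05 to 1.24). These 4 intervals are wide, and a missed threshold does not show that the compounds act alike.

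BPE and BPB differ by an ethyl group on the bridge carbon. GSTU5 was higher in BPE than in BPB by 4.17 ± 0.77 (SE, adjusted p = 0.00148), and GSTU17 by 3.98 ± 0.54 (adjusted p = 0.000191). GSTU17 was also higher in BPE than in BPA by 2.33 ± 0.54 (adjusted p = 0.0366). GSTU27 was higher in BPS than in BPE by 2.26 ± 0.25 (adjusted p = 9.44e-05). GSTU28 was higher in BPS than in BPE by 2.69 ± 0.48 (adjusted p = 0.000784).

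Of 14 tested genes of glutathione synthesis, reduction, breakdown and transport, 3 rose and 3 fell in BPB, 2 rose and 3 fell in BPS, and 1 rose in BPA. The called shares were 42.9% in BPB, 35.7% in BPS and 7.14% in BPA, against 36.6%, 21.0% and 10.4% of all tested genes, so that of BPB lay near the background. GSH1, the rate-limiting enzyme of glutathione synthesis, averaged 131 ± 9.95 FPKM in BPB and 119 ± 30.5 FPKM in BPS, against 286 ± 36.3 FPKM in control (SD, n = 3 each), and fell by 1.11 in BPB and fell by 1.28 in BPS on the log2 scale (adjusted p = 0.000691 and 0.000709). GSH2, the second enzyme of the pathway, fell by 0.77 in BPB and fell by 0.87 in BPS (adjusted p = 0.00325 and 0.0032). GGP1, a peptidase that trims glutathione conjugates in glucosinolate and camalexin synthesis, fell by 2.14 in BPB and fell by 1.48 in BPS (adjusted p = 0.000588 and 0.0128). ABCC1, a vacuolar transporter of conjugates, rose by 0.65 in BPA (adjusted p = 0.0343) and 0.69 in BPB (adjusted p = 0.00718), and ABCC3 rose by 0.89 in BPS (adjusted p = 0.0314).

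Of 12 genes of the other glutathione S-transferase classes, 2 rose in BPA, 3 rose and 2 fell in BPB, 1 rose in BPE, and 1 rose and 1 fell in BPS. The called shares were 16.7% in BPA, 41.7% in BPB, 8.33% in BPE and 16.7% in BPS, against 10.4%, 36.6%, 14.3% and 21.0% of all tested genes, and with so few genes none is read as a result about these classes. DHAR1, a cytosolic dehydroascorbate reductase, fell by 1.03 in BPB (adjusted p = 0.000478) and fell by 0.65 in BPS (adjusted p = 0.0177). DHAR3, its plastid counterpart, rose by 0.56, 0.86 and 0.53 in BPA, BPB and BPS. Shoot markers were higher in the same groups, but also in BPE, where DHAR3 had 12.8 to 17.7 FPKM, against 10.8 to 11.8 FPKM in control. The part of the shoot transcripts in the rise of a plastid enzyme was not tested. Of 8 genes of the TGA factors that bind TGACG and of their partner SCL14, 3 rose in BPB (SCL14, TGA2 and TGA5), TGA4 fell in BPA and TGA3 rose by 1.36 in BPS (adjusted p = 0.00352). The share called in BPB, 37.5%, was close to the 36.6% of all tested genes, and 12.5% was called in BPA and in BPS, against 10.4% and 21.0% of all tested genes. In BPE and BPF limma called 0 of these 8 genes, and at an unadjusted p under 0.05 there was 1 higher in BPE and 1 higher and 1 lower in BPF.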

How the data were processed

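Values are FPKM per gene in 1 deposited table per library, per the file headers; the submitters' processing notes name the build TAIR10 and the tools HISAT2 2.0.4, StringTie 1.3.0 and edgeR. The role of each tool, the annotation release and the use of strand are not given in the sources used here. Read counts were not used here, so no count test was run. FPKM values were taken as deposited and put on the log2(FPKM + 1) scale, on which a change understates that of low genes. The 19484 loci that averaged 1 FPKM or more over the 18 libraries were fitted in R 4.3.3 with limma 3.58.1, with 1 coefficient per group, all 18 libraries and an intensity trend in the variance prior. P-values are two-sided and Benjamini-Hochberg adjusted over all tested loci within a comparison, and called under 0.05. The median half-width of a 95% interval of a log2 change was 0.40. The fit was tested on simulated data.

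Groups and replicate numbers come from the sample titles. The members and the gene lists were chosen with earlier results of these data known. Values per library are given for the 4 called members with the smallest adjusted p in each comparison with control and the 3 members of each class with the highest mean; GSTU1, GSTU2, GSTU3, GSTU7, GSTU12, GSTF6 and GSTF7 were added after their values were seen. Same-numbered libraries of BPA and control deviated together (correlations 0.295 to 0.419), and those of the other compounds and control did not all do so. Fragment totals were recovered from the steps between low values, of which 56.1% to 62.9% lay within 0.02 of a whole number of fragments, against 4% if spread evenly. They speak to counting error only, since fragments carried no molecular identifiers. Promoter windows were read from the RefSeq genome and annotation of TAIR10.1, and coding sequences were aligned with Biopython 1.88. Alternatives were other scalings, no filter, a pseudocount of 0.1, no variance trend, a replicate block, only the 6 libraries compared, and each library left out.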

Additional observations from a re-analysis of the deposited data

How the results depend on the processing

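Against main counts of members called of 4 in BPA, 15 in BPB, 10 in BPE, 1 in BPF and 14 in BPS, 117 over the 10 pairs of compounds and 31 among the 6 groups, none of the 44 calls of members against control changed sign under the alternatives run; the signs of the other calls were not compared. Quantile normalization gave 2 in BPA. Without the filter, where more genes are tested, 2 were called in BPA and 0 in BPF (limma). That fit lost 8 of the 44 calls against control, not all of them named above. Fits of only the 6 libraries compared gave 7 in BPA, 20 in BPE, 3 in BPF and 74 over the pairs. With the replicate number as a block, counts were 5 in BPA, 16 in BPB, 13 in BPE, 2 in BPF, 15 in BPS and 143 over the pairs, and no call of a named member was lost. Leaving out BPA, BPB and BPS replicate 3 together, chosen after seeing the data, gave 10 in BPA, 19 in BPE and 3 in BPF. Leaving out 1 library at a time gave 0 to 6 in BPA, 12 to 17 in BPB, 2 to 10 in BPE, 0 to 2 in BPF, 13 to 17 in BPS, 90 to 130 over the pairs and 27 to 32 among the groups. BPA came to 0 without BPA replicate 2 or control replicate 1, BPE to 2 without BPE replicate 2 or control replicate 3, and BPF to 0 without BPF replicate 2 or 3 or any 1 control library. The cause of these shifts was not tested. Shares of all tested genes called under the alternatives are not given here, so the shifts are not read as specific to the members. Per-library depth limits the low members most: GSTF3 in control and GSTU12 in BPB replicate 3 rest on few fragments.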
